A study of Caenorhabditis elegans with 2 samples.

Results

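The germ granule and Argonaute small RNA genes are 48 protein-coding genes of Caenorhabditis elegans, named one by one in a list and placed by the Ensembl annotation of WBcel235, which holds all 48 of them among 19973 protein-coding genes on the nuclear chromosomes. The list goes by function and uses no value measured here, but it was chosen with results of these data known. It holds 13 germ granule genes, 13 Argonautes, 5 genes for RNA-dependent RNA polymerases and their partners, 3 genes for Dicer and double-stranded RNA factors, 8 mutator and RDE genes, 3 nuclear RNAi genes and 3 genes of piRNA maturation and silencing. What was measured at these genes was the binding of HIM-1, the SMC-1 subunit of the cohesin ring, by chromatin immunoprecipitation and sequencing (ChIP-seq).

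All libraries came from 1 group: young adult hermaphrodites of strain YL577, harvested 47 h after release from L1 starvation, in which HIM-1 carries GFP and FLAG at its C-terminus. Per the labels the precipitation was against GFP in one field (description) and against him-1 in another (antibody). There were 2 biological replicates of whole animals, so that germ line and soma were measured together, and fewer cells with binding at a gene cannot be told apart from less binding per cell. The labels do not say that the replicates were separate cultures, and differences between them may be technical in part.

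Germ granules are condensates of RNA and protein at the outer face of germ cell nuclei, where many small RNA factors gather. In the small RNA pathways an Argonaute protein carries a short guide RNA to its target, and in nematodes RNA-dependent RNA polymerases then copy the target into secondary small RNAs that further Argonautes carry. These pathways silence transposons and foreign genes in the germ line and pass silencing on to progeny. Cohesin holds sister chromatids together and folds chromosomes into loops.

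The authors deposited peaks as intervals with a summit, a signal from their peak caller and a q-value as −log10. The optimal list, thresholded by the irreproducible discovery rate (IDR), held 2051 peaks with signals between 60.8 and 497, and the list of the pooled replicates held 18314 peaks with signals down to 21.7. The 2051 optimal peaks were exactly the 2051 strongest of the pooled list. Replicate 1 had 22720 peaks and replicate 2 had 24220. Read depth is unknown, and signals were compared only within a list. The signal of a peak is the authors' own value and is used here to describe and rank.

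Optimal HIM-1-GFP summits lay at 15 of the 48 genes (31.2%), against 11.5% of all protein-coding genes. A summit was counted for a gene when it lay within 500 bp of its 5′ end, within 500 bp of its 3′ end, or in the body, meaning inside the gene and over 500 bp from both ends. Summits were at the 3′ end of 11 of the 48 genes (22.9%), against 6.80% of all genes, and at the 5′ end of 6 (12.5%), against 4.47%. The body held one in 1 gene, csr-1 (2.08%), against 1.41%, or against 0.521% when summits within 250 bp of small noncoding RNA genes were left out, and 1 gene sets no share apart. The 15 genes were glh-1, glh-2, pgl-1, pgl-2 and pgl-3, the Argonaute genes csr-1, hrde-1 and wago-4, the Dicer partner eri-1, mut-15, mut-16, rde-12, nrde-1, pid-1 and pid-5. Members were chosen with results of these data known, so the shares are descriptions and were given no test. When a summit was counted only for the gene with the nearest end, 11 of the 48 genes had one (22.9%), against 7.74% of all genes. There were 8 at the 3′ end (against 4.24%), 3 at the 5′ end (against 3.0%) and 0 in the body (against 1.02%). Among the 1025 strongest optimal peaks 5 genes had one, csr-1, hrde-1, mut-16, pid-1 and rde-12, against 5.76% of all genes.

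The replicates showed the same order. Among the 2051 strongest peaks of replicate 1, 14 of the 48 genes had a summit, against 11.3% of all genes. Its 3′ ends counted 10, against 6.96%, and its 5′ ends 4, against 4.05%. In replicate 2 the counts were 12 genes, against 11.4%, with 9 at the 3′ end, against 6.60%, and 6 at the 5′ end, against 4.42%. The share with a summit anywhere was 27.1% ± 2.95 for the 48 genes and 11.3% ± 0.0319 for all genes (SD, n = 2 each). At the 3′ end it was 19.8% ± 1.47 for the 48 genes and 6.78% ± 0.251 for all genes. At the 5′ end it was 10.4% ± 2.95 for the 48 genes and 4.23% ± 0.258 for all genes. The gap at each end was larger than the SD between replicates. That SD measures only how the peak calls differed at the same genes, and not the uncertainty of a share over 48 chosen genes.

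**Figure D1:**
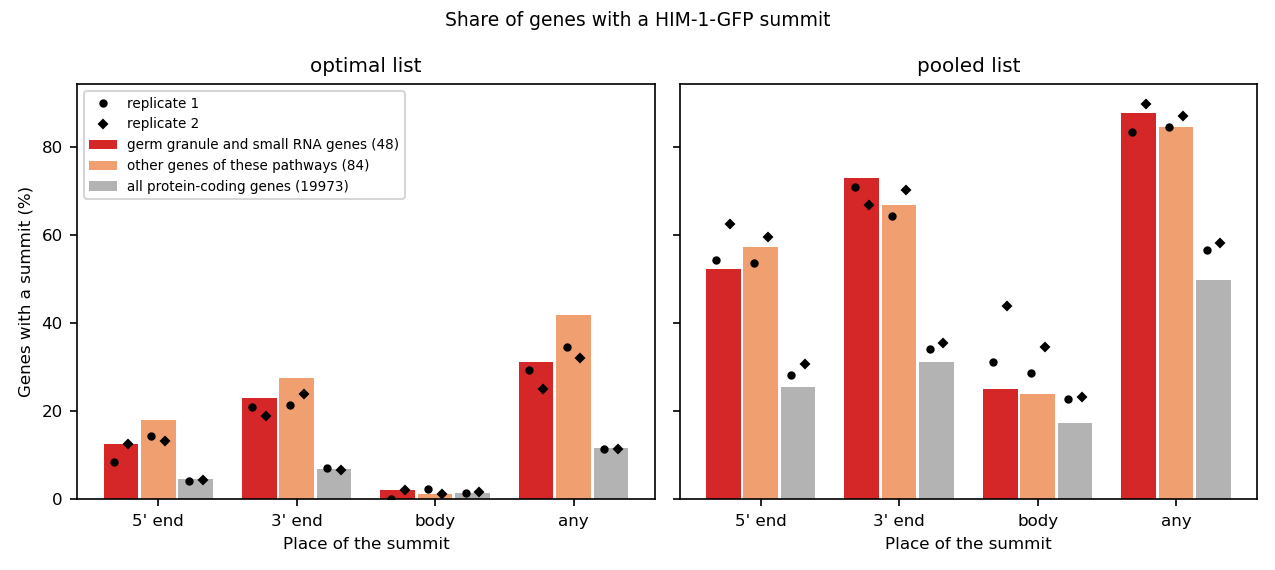
Percent of genes with a HIM-1-GFP summit at the 5′ end, at the 3′ end, in the body or anywhere, for the 48 genes, 84 other genes of the same pathways and all 19973 protein-coding genes. Bars are the optimal list (left) and the pooled list (right), and points are each replicate's 2051 strongest peaks (left) or whole list (right); the 48 genes stood at 31.2% against 11.5% for a summit anywhere in the optimal list.

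The 15 genes held 20 optimal summits, with a median signal of 79.2 against 83.3 over the whole list. At 8 of the 20 summits the end of a neighbouring gene was nearer than that of the listed gene, which was not counted over all optimal summits. Counting only the gene with the nearest end kept 11 of the 15 listed genes. Over all genes it kept 1545 of the 2297 with an optimal summit. Of the 20 summits, 15 (75.0%) reached at least 1 other gene, against 910 of 1791 (50.8%) of all optimal summits that reached a gene. No summit at the 48 genes lay within 250 bp of a tRNA, rRNA, snRNA or snoRNA gene. The DNA under the summits can be read from the RefSeq sequence of WBcel235 (ce11). Windows of the summit and the 50 bases on each side are printed for 7 summits on II, IV and V. These show the DNA at summits whose nearest gene end was that of the listed gene and whose window touched no UTR. Of them, 3 also reached another gene (those of csr-1, mut-15 and pid-5, described with these genes). They are written 5′ to 3′ along the gene's own strand, in lower case, with a match to 1 of 5 searched motifs in capitals.
csr-1, past the 3′ end (chrIV:7962188-7962288, plus strand): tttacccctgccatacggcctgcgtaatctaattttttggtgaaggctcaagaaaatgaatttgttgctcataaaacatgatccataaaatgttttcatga
wago-4, nearer summit past the 3′ end (chrII:12923440-12923540, plus strand): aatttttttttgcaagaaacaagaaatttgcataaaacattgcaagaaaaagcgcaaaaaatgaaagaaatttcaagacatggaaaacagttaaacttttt
wago-4, farther summit past the 3′ end (chrII:12923647-12923747, plus strand): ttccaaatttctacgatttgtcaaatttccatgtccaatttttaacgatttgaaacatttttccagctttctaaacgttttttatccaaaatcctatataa
pgl-1, past the 3′ end (chrIV:6974231-6974331, minus strand): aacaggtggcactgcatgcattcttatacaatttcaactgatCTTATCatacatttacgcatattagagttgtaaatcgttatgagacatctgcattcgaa
pgl-3, past the 3′ end (chrV:4758832-4758932, plus strand): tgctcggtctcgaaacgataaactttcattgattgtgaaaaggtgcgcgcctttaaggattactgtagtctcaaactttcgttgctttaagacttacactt
mut-15, upstream (chrV:15002340-15002440, plus strand): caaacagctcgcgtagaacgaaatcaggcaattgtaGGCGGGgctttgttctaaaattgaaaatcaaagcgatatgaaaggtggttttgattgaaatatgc
pid-5, upstream (chrV:4175759-4175859, plus strand): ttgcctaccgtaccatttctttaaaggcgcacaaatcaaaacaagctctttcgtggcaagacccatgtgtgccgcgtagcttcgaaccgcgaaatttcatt
The capitals mark a GATA site on the opposite strand of the pgl-1 window and a GC box on the opposite strand of the mut-15 window. The motifs were searched on both strands. They were the GAGA repeat (GAGAGA), the GC box in its usual form (CCGCCC) and shifted by a base (CCCGCC), the TATA box (TATAAA), the E-box (CACGTG) and the GATA site (GATAAG).

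Across all 20 windows at the listed genes, the GAGA repeat stood in 1 (the csr-1 body summit), against 8.0% of the 2051 optimal windows of the same length. A GC box stood in 1 (mut-15), against 6.73%, and a GATA site in 2 (pgl-1 and the upstream summit of pgl-3), against 3.56%. The TATA box and the E-box stood in 0 of the 20, against 8.48% and 2.0% of all windows. A match is a run of letters and not a shown binding site. The wago-4 windows were the most AT-rich of those printed, with GC contents of 24.8% and 26.7%, and the pid-5 window had the highest, 46.5%. The median GC content of the 20 windows was 34.2%, against 40.6% for all 2051 and 38.6% for the 1482 away from small RNA genes.

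**Figure D2:**
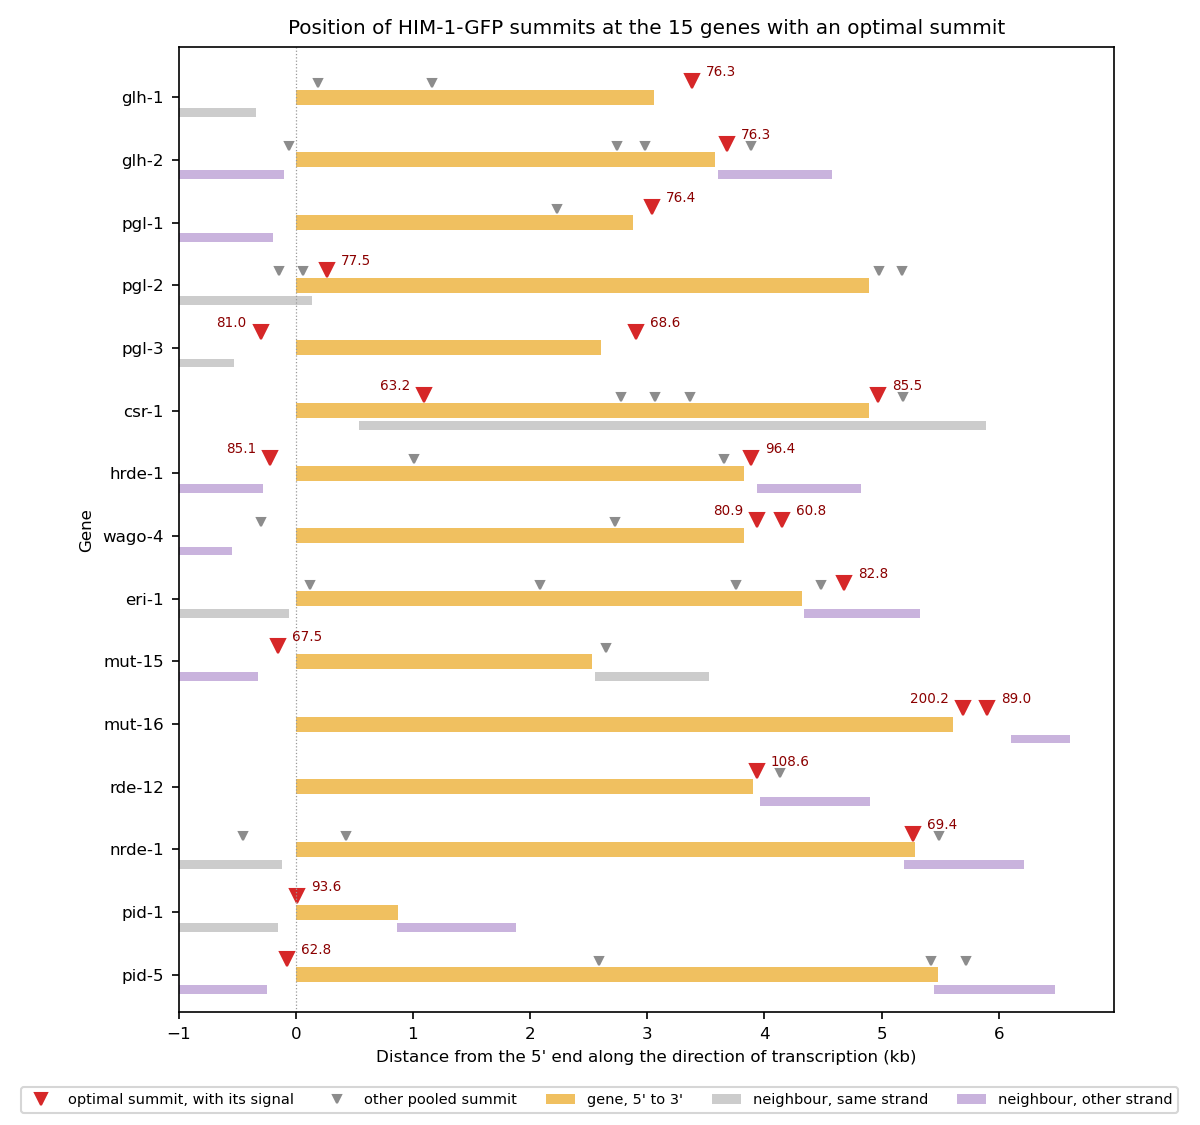
Maps of the 15 genes with an optimal HIM-1-GFP summit, drawn to scale in kb from the 5′ end along the direction of transcription, with neighbouring genes below each bar by strand. Red triangles are optimal summits with their signal and grey triangles are other summits of the pooled list; 12 of the 13 summits at 3′ ends lie past the end of the gene.

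The PGL proteins are the scaffold of P granules, the perinuclear germ granules, and all 3 PGL genes carried optimal summits. At pgl-1 (chrIV:6974441-6977318, minus strand) the summit lay 160 bp past the 3′ end with a signal of 76.4, in intergenic sequence with no other protein-coding gene's end within 500 bp. In the replicates it had a signal of 39.3 (rank 1003) in replicate 1 and 32.8 (rank 2409) in replicate 2, so it was among the 2051 strongest of replicate 1 and not of replicate 2. Its 5′ end faces him-3, a gene for a meiotic chromosome axis protein, across 189 bp, and the pooled list had no summit within 500 bp of it. At pgl-3 (chrV:4755979-4758587, plus strand) both ends carried one. The upstream summit, 297 bp before the 5′ end, had a signal of 80.95, and the 3′ end of the linker histone gene hil-4 was nearer, at 229 bp. The downstream summit, 295 bp past the 3′ end, had a signal of 68.6. The replicates differed most here: the downstream summit ranked 12601 in replicate 1 and 754 in replicate 2, and the upstream one 2543 and 846. At pgl-2 (chrIII:8670543-8675435, minus strand) the summit (signal 77.5) lay in the 5′ UTR, 268 bp inside the gene and 130 bp from the 3′ end of the overlapping gene fli-1. The replicate peaks matched to it, of ranks 1222 and 1485, were among the strongest of each. They lay 148 bp and 137 bp from it, and both were nearer to a weaker pooled summit (52.4) at the same end.

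The 4 GLH proteins are Vasa-related DEAD-box helicases of germ granules, and their genes divided into those with an optimal summit, glh-1 and glh-2, and those without, glh-3 and glh-4. At glh-1 (chrI:6854478-6857536) the summit lay 325 bp past the 3′ end, in intergenic sequence, with a signal of 76.3 and ranks 2102 in replicate 1 and 867 in replicate 2. At glh-2 (chrI:6513928-6517507) it lay 100 bp past the 3′ end with the same signal, 76.3, and ranks 825 in replicate 1 and 2793 in replicate 2. The glh-2 summit lay in a coding exon of che-1, a gene for a zinc finger transcription factor of taste neurons that runs toward glh-2 and ends 78 bp from the summit. Both genes had weaker summits at the 5′ end in the pooled list, 51.8 at glh-1 and 47.5 at glh-2. At glh-3 the strongest pooled summit had a signal of 41.0 at the 5′ end, and replicate 1 listed none. At glh-4 it was 38.0 at the 3′ end.

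The other germ granule genes had no optimal summit. For deps-1, a P granule gene required for full RNAi in the germ line, the pooled list gave 44.4 at the 3′ end. Neither replicate had a peak within 200 bp of that summit. A weaker pooled summit at the same end (27.0) matched the replicate 1 peak of rank 1355, and replicate 2 listed none at this end. For znfx-1, which encodes a helicase of the Z granules that carry inherited silencing, it gave 40.95 at the 5′ end. The MEG proteins are disordered proteins that gather P granules in the early embryo, and their 4 genes lie on X. The 2 with a pooled summit were meg-4 (26.2) and meg-2 (24.2), both at the 3′ end, and meg-1 and meg-3 had none. Of the 13 germ granule genes, 5 had an optimal summit (38.5%, against 11.5% of all genes) and 11 a pooled one (84.6%, against 49.8%). These shares rest on 13 genes and were not tested.

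Among the 13 Argonautes, csr-1, hrde-1 and wago-4 carried optimal summits (23.1%, against 11.5% of all genes), and 9 had a pooled one (69.2%, against 49.8%). CSR-1 binds small RNAs against germline-expressed genes and is essential. At csr-1 (chrIV:7957267-7962157, plus strand) the summit 81 bp past the 3′ end had a signal of 85.5, with ranks 795 in replicate 1 and 1134 in replicate 2. The body summit, 1097 bp inside the gene in an intron, had a signal of 63.2 and ranks of 3277 in replicate 1 and 1898 in replicate 2. Both lay in introns of frpr-10, a gene on the same strand that overlaps csr-1. The start of frpr-10 was 560 bp from the body summit, nearer than either end of csr-1. The downstream summit was thus well inside the strongest peaks of both replicates, and the body summit was near the end of the optimal list, with −log10 q of 2.35. With the starts of every annotated transcript it counted as a 5′ summit of csr-1.

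HRDE-1 is the nuclear Argonaute that carries silencing across generations, and hrde-1 (chrIII:4172337-4176159, minus strand) had a summit at each end. The downstream one, 62 bp past the 3′ end, had a signal of 96.4 and ranks 2453 in replicate 1 and 495 in replicate 2. It lay in the 113 bp between the converging ends of hrde-1 and C16C10.4, whose 3′ end was 52 bp away. The upstream one, 218 bp before the 5′ end, had a signal of 85.1 and ranks 1469 in replicate 1 and 835 in replicate 2. That summit was nearer C16C10.13, which is transcribed away from hrde-1 and begins 63 bp from it. At neither end did position alone give the summit to hrde-1.

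WAGO-4 is an Argonaute of the Z granules, and wago-4 (chrII:12919551-12923377, plus strand) had 2 optimal summits past its 3′ end, at 113 bp with a signal of 80.9 and at 320 bp with a signal of 60.8. No end of another protein-coding gene was within 500 bp of either. In replicate 1 the nearer ranked 378 and the farther 2364, and in replicate 2 both were matched to 1 peak, of rank 2337. That peak lay close to the farther summit and 200 bp from the nearer, at the very limit of the match. The farther summit was at the very end of the optimal list, with rank 2048 of 2051.

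The other 10 Argonautes had no optimal summit. The 3 strongest of them in the pooled list were prg-1, wago-1 and alg-4. At prg-1, the Piwi gene that binds piRNAs, the strongest was before the 5′ end (55.0) and nearer to the start of D2030.7, 119 bp away, with weaker ones at the 3′ end (41.6) and in the body (32.7). At wago-1, which encodes a germ granule Argonaute, the 3′ end had 47.9, at a summit 10 bp from the 3′ end of dhp-1. It ranked 2068 in replicate 2, and replicate 1 listed no summit at the gene. At alg-4, a spermatogenesis Argonaute gene, the 3′ end had 41.2. The pooled list gave 33.8 for alg-2, 28.7 for ergo-1 and 22.3 for rde-1. Over all roles, 27 of the listed genes had a pooled summit and no optimal one, and in 13 of them a neighbour's end was nearer to the strongest: drh-3, ego-1, glh-3, glh-4, henn-1, mut-7, mut-14, nrde-4, prg-1, rde-8, rrf-1, wago-1 and znfx-1. How often this held over all genes was not counted. The Argonaute genes with no pooled summit were alg-1, alg-3, alg-5 and nrde-3, which encode a microRNA Argonaute, a spermatogenesis Argonaute, a germline microRNA Argonaute and a nuclear Argonaute of the soma.

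No optimal summit lay at the 5 genes for RNA-dependent RNA polymerases and their partners, and 5 genes are too few to set that count apart from 11.5%. All 5 had a pooled summit, against 49.8% of all genes. The germline polymerase gene ego-1 had 36.7 at the 5′ end, and the other polymerase genes rrf-3 and rrf-1 had 27.7 and 23.5 at the 3′ end. The Dicer-related helicase gene drh-3 had 32.8 and the Tudor domain gene ekl-1 had 29.6, both at the 3′ end. These values were below the 46.7 that was the median over the 42 listed genes with a pooled summit.

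Of the 3 genes for Dicer and double-stranded RNA factors, eri-1 carried an optimal summit. ERI-1 is an exonuclease of the complex that makes endogenous small interfering RNAs with Dicer. At eri-1 (chrIV:415635-419958, minus strand) the summit lay 359 bp past the 3′ end with a signal of 82.8, the farthest from its gene's end of all 19 end summits counted. Its ranks were 681 in replicate 1 and 1058 in replicate 2. It was inside an intron of the converging gene T07A9.12, whose 3′ end lay 340 bp from it and 18 bp from that of eri-1. The Dicer gene dcr-1 had a pooled summit of 52.6 at the 3′ end, which ranked 1504 in replicate 1 and 6057 in replicate 2. The strongest replicate 1 peak at that end ranked 1357. The double-stranded RNA binding gene rde-4 had 50.8 at the 5′ end.

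The strongest summits of the 48 genes were at 2 of the 8 mutator and RDE genes, mut-16 and rde-12. MUT-16 is the scaffold of Mutator foci, where secondary small RNAs are made. At mut-16 (chrI:10080159-10085765) the summit 89 bp past the 3′ end had a signal of 200.2 and rank 78 in the optimal list, with ranks 246 in replicate 1 and 31 in replicate 2. A further optimal summit lay 293 bp past the end with a signal of 89.0. The strongest replicate 1 peak within 200 bp was the same for both, and in replicate 2 the matched peaks were separate. The gene scpl-1 converges on mut-16 from 499 bp away and was nearer to the farther summit, at 207 bp. At rde-12 (chrV:13665389-13669292), a gene for a DEAD-box helicase of the RNAi response, the summit had a signal of 108.6 and ranks 426 in replicate 1 and 581 in replicate 2. It stood in the 60 bp between the 3′ ends of rde-12 and mip-2, 30 bp from the one and 31 bp from the other. MIP-2 is itself a germ granule protein.

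At mut-15 (chrV:15002543-15005067), another Mutator focus gene, the summit lay 153 bp before the 5′ end with a signal of 67.5 and ranks 2225 in replicate 1 and 1556 in replicate 2. It shared that space of 319 bp with the start of fib-1, the fibrillarin gene, which is transcribed the other way. The other 5 mutator and RDE genes had no optimal summit. The pooled list gave rde-10, whose product acts with RDE-11, 58.9 at the 5′ end, just below the lowest optimal signal of 60.8. It gave mut-7, a gene for an exonuclease, 50.2 and mut-14, a gene for a DEAD-box helicase, 45.5, both at the 3′ end. The lowest were rde-8 (35.5), a gene for an endonuclease, and rde-11 (23.8). Of the 8 genes, 3 had an optimal summit (37.5%, against 11.5% of all genes) and all 8 a pooled one, against 49.8%. A group of 8 genes is small, and its shares were not tested.

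Of the 3 nuclear RNAi genes, which act downstream of nuclear Argonautes on nascent transcripts, nrde-1 (chrIII:3713463-3718750) carried a summit. It lay 17 bp inside the 3′ end, in the overlapping 3′ UTRs of nrde-1 and the converging gene C14B1.8, with a signal of 69.4. Its ranks were 1203 in replicate 1 and 1244 in replicate 2. The replicate 1 peak lay 155 bp away and was nearer to a weaker pooled summit (52.9). Among the 13 end summits at 3′ ends, that of nrde-1 was the only one not past the end of its gene. In the pooled list nrde-4 had 40.9 at the 5′ end and nrde-2 had 31.5 at the 3′ end.

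In the last group 2 of the 3 genes had an optimal summit, both at the 5′ end (66.7%, against 4.47% of all genes). A group of 3 genes sets no share apart. PID-1 is a subunit of the PETISCO complex, which works on piRNA precursors. At pid-1 (chrII:7689681-7690556, minus strand) the summit lay in the 5′ UTR, 11 bp inside the gene, with a signal of 93.6 and ranks 1623 in replicate 1 and 611 in replicate 2. The 3′ end of nhx-2 was 166 bp from it. PID-5 is a germ granule protein of the piRNA pathway. At pid-5 (chrV:4175882-4181360) the summit lay 73 bp before the 5′ end with a signal of 62.8 and ranks 2024 in replicate 1 and 1835 in replicate 2. It is shared with coh-4, a gene for a meiotic kleisin subunit of cohesin, which starts 241 bp from pid-5 in the opposite direction. The pooled list also had a weaker summit (50.2) at the 3′ end of pid-5. The piRNA methyltransferase gene henn-1 had no optimal summit and a pooled one of 28.5 at the 3′ end.

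Position within the window was also described. Of the 13 summits counted at 3′ ends, 12 lay past the end, whereas 75.7% of the 1493 pairs of a gene and a summit did so over all genes. The median over all 13 was 113 bp past the end, against 154 bp over the 1493 pairs. Of the 6 at 5′ ends, 4 lay upstream, against 80.1% of 923 pairs over all genes. The median over all 6 was −113 bp, upstream of the end, against −176 bp over the 923 pairs. Of the 20 summits, 13 lay in intergenic sequence, against 1216 of 2051 (59.3%) over the whole list. The counted end summit farthest out was that of eri-1, at 359 bp of the 500 bp allowed. Of the listed genes without an optimal summit, alg-5 came closest to one, 791 bp upstream on the side of the histone gene his-68.

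Genes that face a neighbour end to end carried summits more often, both in the list and over all genes. This split was chosen after the values had been seen. A summit was counted for every gene it reached, so a gene with a facing end could also be given its neighbour's summit. How far this raised the shares was not tested. Of the 19 listed genes with the 3′ end of an opposite gene within 500 bp of their own, 6 had an optimal summit there (31.6%), against 5 of 29 without (17.2%). All 6 shared a summit with the converging gene. Over all genes the counts were 692 of 5750 with such an end and 666 of 14223 (4.68%) without. At 5′ ends the listed genes gave 3 of 15 with a facing start and 3 of 33 without (9.09%), and all genes gave 10.8% of 1961 and 3.78% of 18012. In each of these layouts the share of the listed genes was above that of all genes, on counts of 3 to 6. Of the 13 summits at listed 3′ ends, 7 (53.8%) reached converging ends, against 410 of 1066 (38.5%) over all genes.

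With the weaker peaks included, most of the 48 genes had a summit. In the pooled list 42 did (87.5%), against 49.8% of all genes, with 35 at the 3′ end (72.9%), against 31.0%, and 25 at the 5′ end (52.1%), against 25.5%. Body summits were in 12 of 48, against 17.2%. The listed genes were longer, with a median of 3865.5 bp against 2027 bp for all genes, and the part of length in the body counts was not tested. The whole list of replicate 1 gave 40 genes, against 56.6%, and that of replicate 2 gave 43, against 58.0%.

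The strongest pooled summit was at the 3′ end in 27 of these 42 genes (64.3%), at the 5′ end in 15 and in the body in 0. Over the 9939 protein-coding genes with a pooled summit it was at the 3′ end in 4425 (44.5%), at the 5′ end in 3491 and in the body in 2023. Among genes with a summit at both ends the 3′ one was the stronger in 10 of 18 listed genes (55.6%), against 1357 of 2725 (49.8%). The median of the strongest signals was 46.7 for the listed genes and 36.7 for all genes. By class it was 44.4 for the listed genes and 37.0 for all genes at the 3′ end, 41.6 and 33.7 in the same order at the 5′ end, and 27.3 and 28.8 in the body.

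**Figure D3:**
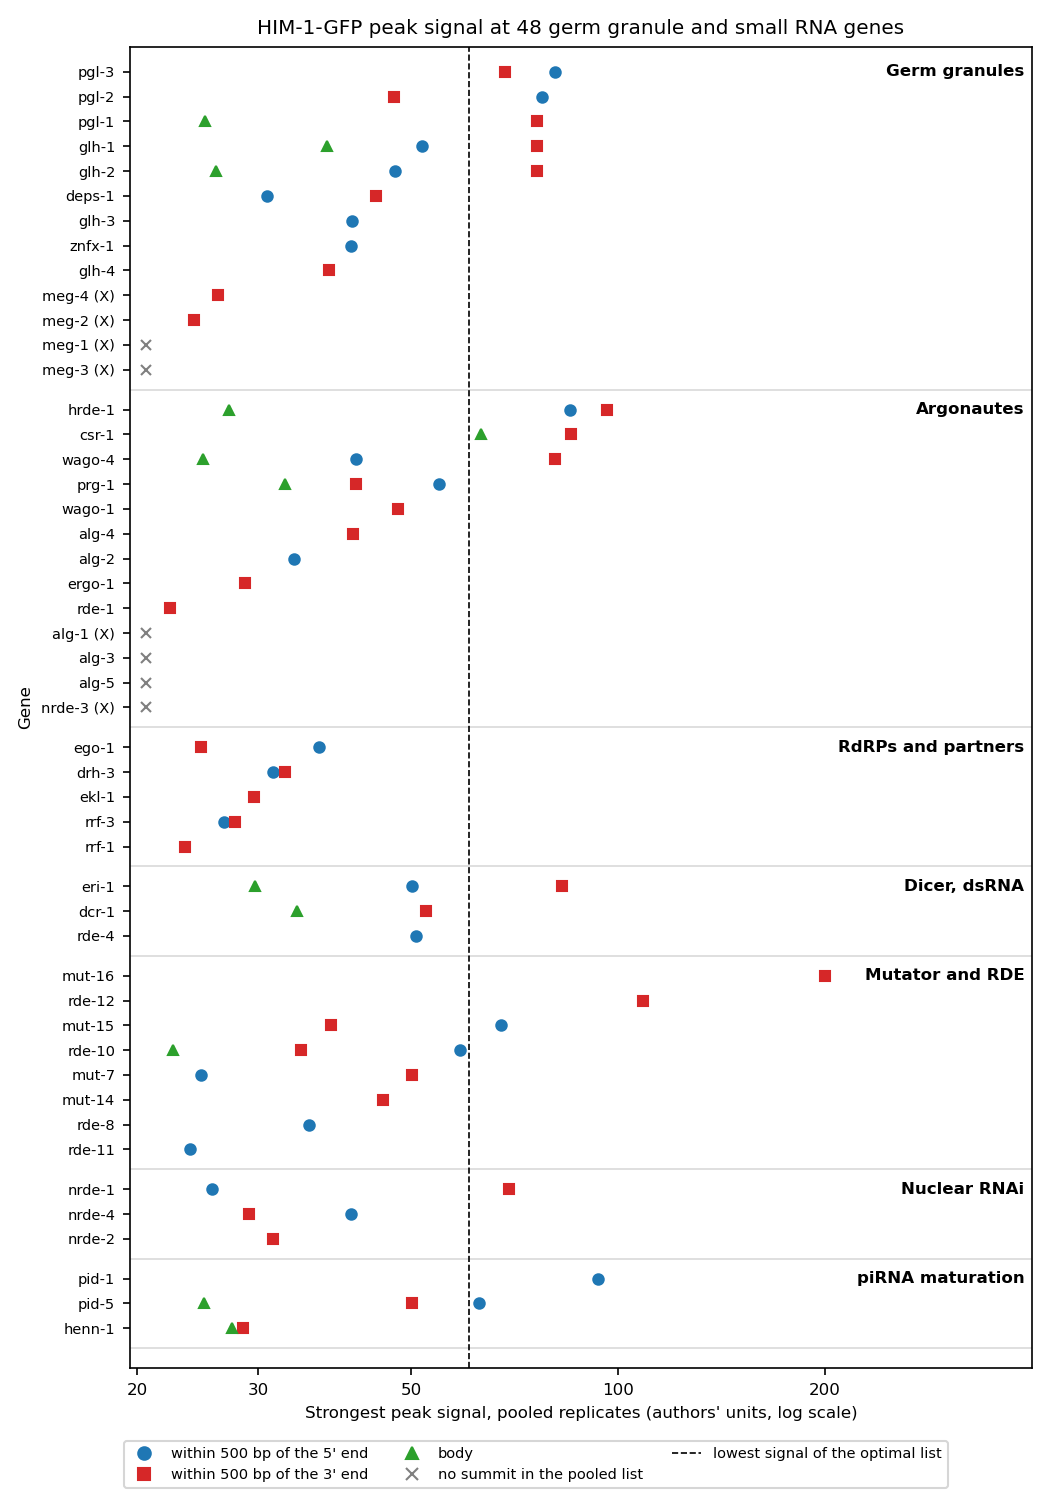
Strongest HIM-1-GFP peak signal in the pooled list at each of the 48 genes, by place of the summit, on a log axis and grouped by role, with genes on X marked and crosses for genes without a pooled summit. The dashed line is the lowest signal of the optimal list, 60.8; mut-16 stands farthest right at 200.2, and all 6 genes on X stand at or below 26.2.

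The listed genes were also divided by chromosome. On chromosomes I and III lay 14 and 8 of the listed genes, on II and X 6 each, and on IV and V 7 each. None of the 6 genes on X (alg-1, nrde-3, meg-1, meg-2, meg-3 and meg-4) had an optimal summit, against 4.28% of X genes, and 2 had a pooled one (33.3%), against 27.2%. These counts of 6 genes are too small to set apart from those shares. On the autosomes 15 of 42 had an optimal summit (35.7%), against 12.6% of autosomal genes, and 40 of 42 a pooled one (95.2%), against 53.3%. The 2 autosomal genes without a pooled summit were alg-3 and alg-5.

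The replicates agreed on part of the list. Of the 48 genes, 9 had a summit among the 2051 strongest peaks of both replicates: csr-1, eri-1, hrde-1, mut-16, nrde-1, pgl-2, pid-1, pid-5 and rde-12. In replicate 1 alone there were 5, dcr-1, deps-1, glh-2, pgl-1 and wago-4, and in replicate 2 alone 3, glh-1, mut-15 and pgl-3. The genes dcr-1 and deps-1 were not in the optimal list. This overlap by gene was not counted over all protein-coding genes, so it cannot be called high or low. By summit, 10 of the 20 were among the strongest of both replicates, against 1370 of 2051 (66.8%) over the whole optimal list. Each summit was matched here to the strongest replicate peak within 200 bp. For the listed summits this was 13 of 20 in replicate 1 and 16 of 20 in replicate 2.

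**Figure D4:**
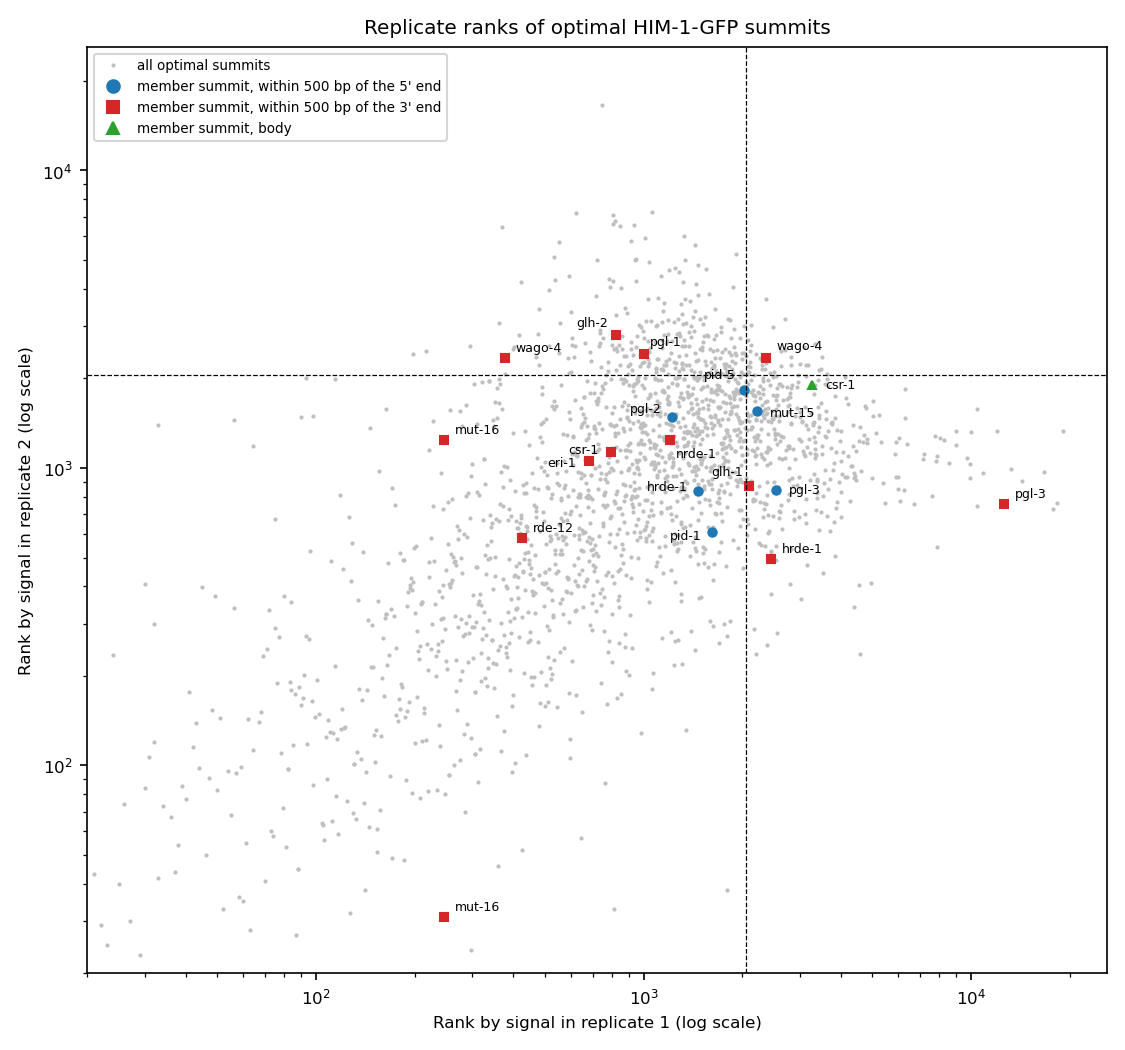
Rank by signal in replicate 1 (x axis) and replicate 2 (y axis), both on log axes, of optimal HIM-1-GFP summits, with the 20 at the listed genes coloured by place and dashed lines at rank 2051. The axes start at rank 20, which leaves 38 of the 2016 summits matched in both replicates off the plot; the listed summits spread on both sides of the dashed lines, and the downstream summit of pgl-3 lies far to the right at 12601 in replicate 1.

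Other genes of the same pathways, with microRNA partners and germline RNA regulators counted in, also stood above the background. Of 84 such genes, 35 had an optimal summit (41.7%, against 11.5% of all genes), and 71 had a pooled one (84.5%, against 49.8%). By list, an optimal summit anywhere was at 62.5% of 16 piRNA genes, 55.6% of 9 microRNA partners and 54.2% of 24 germ granule genes. It was at 21.4% of 28 RNAi genes and at 1 of 7 Argonautes (14.3%). There were 15 with an optimal summit at the 5′ end (17.9%, against 4.47%), 23 at the 3′ end (27.4%, against 6.80%) and 1 in the body (1.19%, against 1.41%). At the 5′ end the RNAi list had 1 of 28 (3.57%) and the Argonaute list 0 of 7. The 3′ summit of mip-2 among these is the same summit as that counted for rde-12. Germline RNA regulators made up 7 of the 15 at the 5′ end, with signals of 154 at pie-1, 95.8 at mex-1, 91.3 at pos-1, 86.2 at mex-6, 78.5 at gld-2, 70.01 at gld-3 and 61.5 at mex-5. In the piRNA pathway they were the tofu genes tofu-1 (66.1), tofu-6 (106.4) and tofu-7 (72.5), with pid-2 (77.5) and tost-1 (66.6). In the microRNA and RNAi lists they were pash-1 (101.9), the partner of Drosha, the exonuclease gene xrn-2 (75.8) and simr-1 (70.6). A neighbour's end was nearer to the 5′ summits of gld-3 (T07F8.4), mex-5 (rec-8), mex-6 (AH6.17), pash-1 (T22A3.6) and simr-1 (C06A5.3). The highest signal was at a 5′ end in the lists of germ granule genes (pie-1) and microRNA genes (pash-1). It was at a 3′ end in the other 3 lists, with 162 at rsd-6 among RNAi genes, 137 at erh-2 among piRNA genes and 65.8 at ppw-2 among Argonautes. The end of apc-11 was nearer to the erh-2 summit, and that of trf-2 to the ppw-2 summit.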

How the data were processed

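HIM-1-GFP ChIP-seq peak lists on ce11 (WBcel235) were used for 2 replicates, their pool and an optimal IDR list, per the labels. The signal of each peak (column 7) and its −log10 q-value were deposited by the authors, and as to the aligner, peak caller and versions, these were not given in the sources used here. Lists on ce10 were not used. Read depth is unknown, and no control library was analysed here.

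Summits (start plus offset, 1-based) were placed on Ensembl release 115 gene models with Python 3.11.15 and pandas 2.3.3. A summit within 500 bp of a gene end, or inside the gene beyond that, was counted for every gene reached. No peak ran past a chromosome end. The rank of a summit in a replicate came from that replicate's strongest peak within 200 bp, which need not be the nearest. A replicate's strongest peaks were its 2051 highest by signal. The placing was tested on simulated data.

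The members and lists were chosen with earlier results of these data known, so no tests were run. All members were described: those with an optimal summit in full and the rest by their strongest pooled summit. Of 97 other pathway symbols, 84 were found. Alternatives were other windows, lists, assignments and a −log10 q minimum of 2.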

Additional observations from a re-analysis of the deposited data

How the results depend on the processing

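The counts depended most on how deep into the list peaks were taken and on how a summit was given to a gene. With the 1025 strongest optimal peaks the listed genes with a summit were 5 in all (against 5.76% of all genes). They were 4 at the 3′ end (against 3.29%), 2 at the 5′ end (against 1.91%) and 0 in the body (against 0.921%). The other pathway genes were then 14 in all (16.7%) and 6 at the 5′ end (7.14%). When only the gene with the nearest end was counted, the 5′ count was 3, the body count 0 and that of the other pathway genes anywhere 21, while the total was 11 (against 7.74% of all genes) and the 3′ count 8. The body count was 2 with a window of 250 bp (against 2.11% of all genes) and 0 with the ends of every annotated transcript (against 1.18%). Peaks of the pooled list with −log10 q of at least 2 left 16 genes (33.3%, against 12.6% of all genes). With each replicate left out in turn the counts ran from 12 to 14 in all, 9 to 10 at the 3′ end, 4 to 6 at the 5′ end and 0 to 1 in the body, from 40 to 43 for the pooled list, and for the other pathway genes from 27 to 29 in all and 11 to 12 at the 5′ end. The other planned settings (1000 bp, the pooled list's strongest peaks, any base of the peak, no summits near small RNA genes) kept the counts of the listed and other pathway genes within 1.5 times, while the last took the body count of all genes to 104, against 281. The cause of these differences was not tested, apart from the fewer peaks taken. Depth is unknown, so a gene without a peak has binding that was not detectable in these lists, and there was no test of any share.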
